A study of Homo sapiens with 12 samples.

Results

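The aryl hydrocarbon receptor pathway was followed here through 6 genes of the deposited gene table, namely AHR, ARNT, AHRR, TIPARP, CYP1A1 and CYP1B1, out of 58735 annotated genes. They were taken by gene symbol over all 12 libraries, and the question put to them was whether cells given the compound BMS-309403 carried the transcript pattern of a xenobiotic response. The 12 libraries came from HepaRG, an established human hepatic cell line labelled wild type, in 4 groups of 3. Control cells were untreated over the 4 h of the experiment. The group called PA was given 400 µM palmitate, a saturated fatty acid carrying a deuterium label, for 4 h. Cells called PA+OA had that palmitate dose plus 200 µM of the monounsaturated oleate, likewise for 4 h. BMS-309403, a small molecule known to block FABP4, was added at 50 µM for 24 h in the PA+BMS group, with 400 µM palmitate during 4 h of that time. No group had BMS-309403 without palmitate or the longer exposure time alone, and no solvent is named in the labels, so those factors cannot be told apart from the compound.

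AHR encodes a ligand-activated transcription factor of the bHLH-PAS family that waits in the cytoplasm bound to HSP90 and p23. A ligand such as a dioxin, a polycyclic aromatic hydrocarbon or a tryptophan metabolite sends it to the nucleus, where it pairs with ARNT and binds DNA at the xenobiotic response element, whose core reads GCGTG. Well known targets include CYP1A1 and CYP1B1, monooxygenases that oxidise the ligands, and 2 feedback genes. AHRR encodes a repressor that competes with AHR for ARNT, and TIPARP encodes an ADP-ribosyltransferase that modifies AHR and promotes its loss. CYP1A1 is the usual readout of receptor activation, while TIPARP and AHRR also answer to other signals.

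The promoters of 3 members are shown because they carry the core on either strand just upstream of a transcription start and because their transcripts took 3 different courses over the groups. RefSeq on GRCh38.p14 had 8 promoter entries for 5 of the 6 members, counting alternative starts, and CYP1B1 was not matched. The 250 bases before the start are printed 5′ to 3′ in the gene's direction, with GCGTG, or CACGC where the core lies on the opposite strand, in capitals. They lie at chr15:74725529-74725778 (minus strand) for CYP1A1, chr3:156674340-156674589 (plus strand) for the first TIPARP entry and chr5:321464-321713 (plus strand) for the first AHRR entry.
CYP1A1: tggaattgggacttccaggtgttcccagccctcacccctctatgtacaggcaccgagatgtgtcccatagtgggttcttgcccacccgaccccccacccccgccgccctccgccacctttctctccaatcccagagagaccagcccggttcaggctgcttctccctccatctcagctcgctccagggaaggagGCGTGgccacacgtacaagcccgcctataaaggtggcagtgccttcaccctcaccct
TIPARP: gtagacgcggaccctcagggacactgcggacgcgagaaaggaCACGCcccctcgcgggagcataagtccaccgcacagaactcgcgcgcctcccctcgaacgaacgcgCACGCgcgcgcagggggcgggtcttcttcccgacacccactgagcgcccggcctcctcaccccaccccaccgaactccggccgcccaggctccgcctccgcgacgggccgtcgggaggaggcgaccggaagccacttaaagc
AHRR: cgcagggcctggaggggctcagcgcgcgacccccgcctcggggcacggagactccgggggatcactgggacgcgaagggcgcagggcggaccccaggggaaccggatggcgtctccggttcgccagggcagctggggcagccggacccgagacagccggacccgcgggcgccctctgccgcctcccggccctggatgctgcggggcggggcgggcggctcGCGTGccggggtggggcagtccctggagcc
The first base of the core lay 57 bases before the start of CYP1A1, 208 and 142 bases before that of TIPARP, and 30 bases before that of AHRR. The AHRR match also fitted the longer form TNGCGTG. The second AHRR entry held the core 247 and 42 bases before its start, the other 2 TIPARP entries and ARNT held none, and the AHR entry held none before its start and 1 match 37 bases after it. The core is a common word: 36.5% of all 35116 RefSeq promoter entries, which cover 250 bases before and 50 after the start, held GCGTG on either strand, and 5.51% held TNGCGTG, so a match describes the sequence only.

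Messenger RNA was selected by its poly(A) tail. Levels are given as FPKM, fragments per kilobase of transcript divided by a factor for each library, and can be compared between genes. Whole reads recovered from the values summed to 16059128 to 19971190 per library. That factor did not equal these sums. Divided by them, it was 1.03 to 1.10 in control and 0.888 to 0.976 in PA. It was 0.827 to 1.03 in PA+OA and 1.09 to 1.14 in PA+BMS. A higher ratio gives lower FPKM, so PA+BMS levels were lowered relative to PA when compared with scaling by read sums. Each group value is a mean ± SD of 3 libraries, and the labels do not say that these came from separate cultures, so the spread may be technical. The libraries also lay along an axis that followed transcript GC content: a first principal component with 54.4% of the variance had loadings whose Spearman correlation with GC content was 0.68 across the tested genes (genes are no independent replicates). PA+OA replicate 1 (score 54.6) and PA+BMS replicate 3 (score -51.5) stood apart at its opposite ends. Of 10 hepatocyte markers only CPS1, a urea cycle enzyme, reached 1 FPKM in a library, and ALB and FGB had no read in any, so these cells carried little of the transcript set of mature hepatocytes, in which AHR activation is usually described. Summed bile duct markers, nearly all from KRT7, an epithelial keratin, and MUC1, a mucin, were 142 to 187 FPKM in PA+BMS, below the 481 to 569 of control, the 575 to 674 of PA and the 523 to 921 of PA+OA. The bile duct marker SOX9, under 1 FPKM in all libraries, went the other way. It was 0.563 to 0.641 FPKM in PA+BMS, 0.359 to 0.503 in control, 0.429 to 0.623 in PA and 0.375 to 0.477 in PA+OA. Macrophage marker sums were 0.770 to 1.0002 FPKM in PA+BMS and 1.63 to 2.50 over the other groups. Of 6 macrophage markers only CSF1R reached 1 FPKM in a library, and PTPRC and CD68 had 5 and 10 reads over all libraries. CD14 had another order, with means of 0.0945 FPKM in control, 0.231 in PA, 0.289 in PA+BMS and 0.506 in PA+OA. Fibroblast sums were 14.8 to 16.001 in PA+BMS, 15.9 to 20.4 in PA+OA and 19.1 to 21.3 over control and PA. Endothelial sums were 0.315 to 0.468 FPKM over PA+BMS and PA+OA and 1.07 to 1.84 over control and PA, and of 5 endothelial markers only CDH5 reached 1 FPKM. A sum that rests on 1 gene does not show that cells of that type were present. The macrophage marker CD163 and the stellate marker LRAT had no read in any library. The part of these markers in the differences below was not tested, and in bulk RNA fewer cells of a type cannot be told apart from less RNA per cell.

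All 6 members had reads in every library, but their levels were far apart (the plot of levels by library). AHRR was the most abundant, at 15.3 to 40.1 FPKM over the 12 libraries, followed by ARNT at 6.87 to 11.1, TIPARP at 2.20 to 12.2 and AHR at 1.28 to 4.45. CYP1B1 lay between 0.208 and 2.12 FPKM and CYP1A1 between 0.212 and 0.903. The repressor was therefore above the receptor in each library, and the classical readout gene was near the bottom. A gene entered the tests over all genes when at least 3 libraries reached 1 FPKM. CYP1A1 did not, and CYP1B1 passed only through the 3 PA+BMS libraries, so its difference could only be a rise there. The members were chosen with results of these libraries known, so their values are given as a description without a test.

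**Figure D1:**
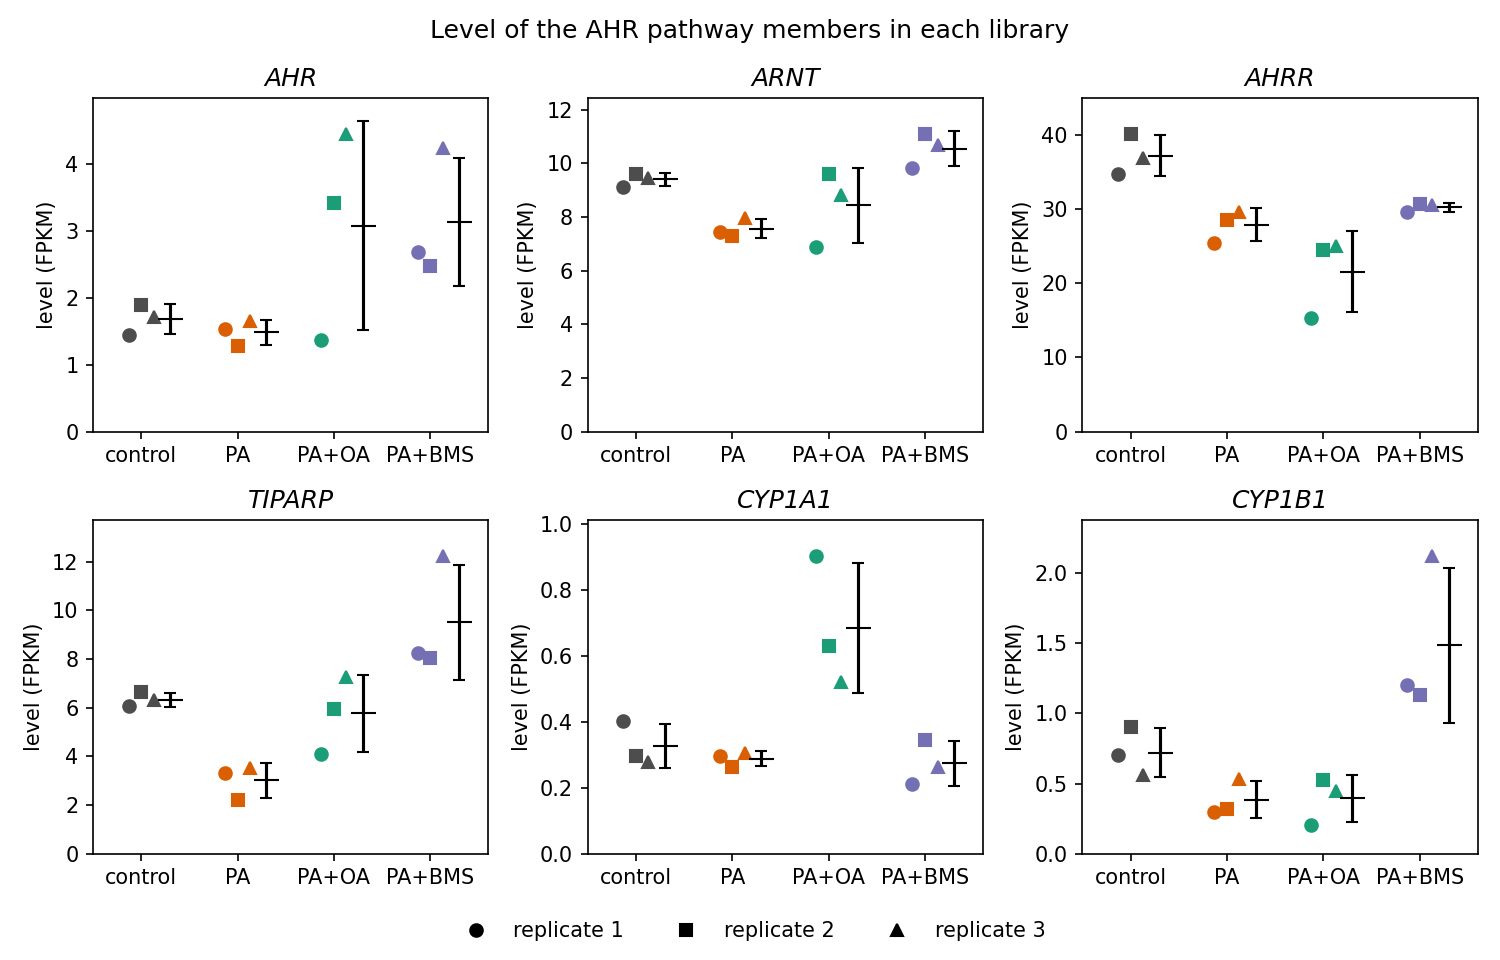
Level in FPKM (y axis) of each of the 6 members in the 12 libraries, grouped by treatment (x axis), with a symbol per replicate and, in black beside them, the group mean ± SD of 3 libraries. TIPARP lay at 2.20 to 3.54 FPKM in PA and 8.05 to 12.2 in PA+BMS, whereas CYP1A1 was highest in PA+OA.

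The receptor gene AHR (ENSG00000106546, chromosome 7, 16916359 to 17346152, plus strand, GRCh38) stood at 1.45, 1.89 and 1.71 FPKM in control and at 1.53, 1.28 and 1.65 in PA. In PA+BMS it was 2.68, 2.47 and 4.23 FPKM, and in PA+OA 1.37, 3.41 and 4.45. Every PA+BMS library was above every PA and control library, while PA+OA was split, with replicate 1 among the PA values and replicates 2 and 3 above all control values. The group means, in rising order, were 1.48 ± 0.188 (PA), 1.68 ± 0.221 (control), 3.07 ± 1.56 (PA+OA) and 3.13 ± 0.958 FPKM (PA+BMS; SD, n = 3), and the ranges of PA and control, and of PA+OA and PA+BMS, overlapped. On the log2(FPKM + 1) scale of the fit, on which the change of low genes is understated, PA+BMS exceeded PA by 0.71 ± 0.25 (SE) and control by 0.60 ± 0.25. The RefSeq start used above, with its window at chr7:17298402-17298701, lies far inside the annotated gene, whose listed start reaches into upstream exons.

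ARNT (ENSG00000143437, chromosome 1, 150809705 to 150876768, minus strand), the DNA-binding partner of AHR and also of the HIF proteins, moved within a narrow range. Its level was 9.13, 9.61 and 9.47 FPKM in control, 7.43, 7.30 and 7.96 in PA, 6.87, 9.60 and 8.82 in PA+OA, and 9.83, 11.1 and 10.7 in PA+BMS. The order of group means was PA (7.57 ± 0.351), PA+OA (8.43 ± 1.40), control (9.40 ± 0.245) and PA+BMS (10.5 ± 0.648), all with SD and n = 3. PA+OA overlapped both of its neighbours in that order, whereas PA and control, and control and PA+BMS, did not overlap. The difference of PA+BMS from PA was 0.43 ± 0.11 (SE) on the log2(FPKM + 1) scale, a ratio of means of 1.39.

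AHRR (ENSG00000063438, chromosome 5, 304176 to 438291, plus strand), the repressor and itself a textbook AHR target, followed another order. Control had 34.7, 40.1 and 36.8 FPKM, PA 25.4, 28.6 and 29.7, PA+OA 15.3, 24.4 and 24.96, and PA+BMS 29.6, 30.7 and 30.5. Control was highest in all 3 libraries, PA+OA lowest in all 3, and the PA and PA+BMS ranges met at their edges. PA+BMS was 0.29 below control on the log2(FPKM + 1) scale, with an SE of 0.16 and a ratio of means of 0.814. It was 0.12 ± 0.16 (SE) above PA. AHRR overlaps the protein-coding gene PDCD6 on the same strand (13.7 to 24.9 FPKM) and the pseudogene AC010442.2 (5.83 to 11.1 FPKM), so the assignment of its reads is uncertain.

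TIPARP (ENSG00000163659, chromosome 3, 156673235 to 156706770, plus strand) had the widest swing among the members that were above 1 FPKM in all libraries. It was 6.06, 6.63 and 6.32 FPKM in control, 3.33, 2.20 and 3.54 in PA, 4.10, 5.96 and 7.24 in PA+OA, and 8.24, 8.05 and 12.2 in PA+BMS. The PA libraries were below, and the PA+BMS libraries above, those of each other group, while control and PA+OA overlapped. Means were 3.02 ± 0.721 FPKM in PA and 9.51 ± 2.36 in PA+BMS (SD, n = 3), a ratio of 3.15, against 6.34 ± 0.288 in control. On the log2(FPKM + 1) scale PA was 0.88 below control and PA+BMS 0.50 above it, each with an SE of 0.20. The antisense neighbour TIPARP-AS1 shares the gene's start region and lay at 0.140 to 0.860 FPKM, and no strand setting is given in the sources used here.

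CYP1A1 (ENSG00000140465, chromosome 15, 74719542 to 74725610, minus strand), the standard readout of AHR activation, was not higher with BMS-309403. Its level was 0.404, 0.296 and 0.280 FPKM in control, 0.296, 0.263 and 0.307 in PA, and 0.212, 0.346 and 0.264 in PA+BMS. These 3 groups overlapped, and the difference of PA+BMS from PA was -0.018 ± 0.089 (SE) on the log2(FPKM + 1) scale, from a fit without the filter on low values. The PA+OA libraries had 0.903, 0.629 and 0.522 FPKM, all above the libraries of every other group, with a mean 2.37 times that of PA. These values rest on 15 to 47 reads per library, and 3 reads, taken as the floor of detection, were worth 0.0385 to 0.0576 FPKM, so the gene was measured but at low depth. No other annotated gene overlaps CYP1A1.

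CYP1B1 (ENSG00000138061, chromosome 2, 38066973 to 38109902, minus strand), the other monooxygenase among the members, was highest with BMS-309403. It stood at 0.700, 0.903 and 0.559 FPKM in control, 0.298, 0.321 and 0.536 in PA, 0.208, 0.529 and 0.447 in PA+OA, and 1.20, 1.13 and 2.12 in PA+BMS. Each PA+BMS library was above each library of the other groups, control was above PA and PA+OA, and PA overlapped PA+OA. The mean of PA+BMS, 1.48 ± 0.553 FPKM, was 3.85 times that of PA (0.385 ± 0.131) and 2.06 times that of control (0.721 ± 0.173; SD, n = 3). Read counts behind these levels were 30 to 55 per library in PA and 149 to 253 in PA+BMS. The antisense gene CYP1B1-AS1 (0.0810 to 0.582 FPKM) and RMDN2 (0.133 to 0.343 FPKM) overlap CYP1B1 on the opposite strand.

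In the comparison of PA+BMS with PA, AHR, ARNT, TIPARP and CYP1B1 were higher in every PA+BMS library than in every PA library, as were 32.8% of all 11856 tested genes, and AHRR and CYP1A1 overlapped. In the limma fit over all genes, 4 of the 5 tested members were called higher and none lower at an adjusted p under 0.05, where 25.2% of all tested genes were called higher and 29.4% lower. Since the members were chosen with this contrast known, nothing is read from that count. Against control the same 4 genes were again higher without overlap (16.7% of all tested genes), and AHRR was lower (19.2%). CYP1B1 passed the filter only through PA+BMS, so its lack of overlap with PA and with control was fixed by the filter. In PA+BMS against control limma called none of the 5, beside 4.77% of all tested genes called higher and 6.25% lower. At an unadjusted p under 0.05 it was 3, all higher, and voom on recovered reads called 0. The share of all tested genes at that unadjusted threshold is not given here, so nothing is read from the 3.

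The comparison of PA+BMS with PA+OA sets the BMS-309403 group beside the other co-treatment. ARNT, AHRR, TIPARP and CYP1B1 were higher without overlap (28.1% of all tested genes) and were called higher by limma, where 23.1% of all tested genes were called higher and 26.4% lower. Nothing is read from these counts either, since the members were chosen with the results known and CYP1B1 passed the filter only through PA+BMS. AHR did not differ beyond its spread (0.078 ± 0.25 SE on the log2(FPKM + 1) scale), and its sign turned without PA+OA replicate 1, to -0.27. CYP1A1 was lower in every PA+BMS library than in every PA+OA library (31.4% of all tested genes), with a ratio of means of 0.400.

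With palmitate alone against control, ARNT, AHRR, TIPARP and CYP1B1 were lower without overlap (29.3% of all tested genes). TIPARP was the 1 member called lower, where limma called 14.8% of all tested genes lower and 12.8% higher. With oleate added to palmitate, TIPARP and CYP1A1 were higher without overlap (13.3% of all tested genes) and AHRR was lower (11.6%). There TIPARP was the 1 member called higher by limma, and voom called none, where limma called 4.01% of all tested genes higher and 3.91% lower. These comparisons share libraries, so the values that return in several of them are not independent.

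**Figure D2:**
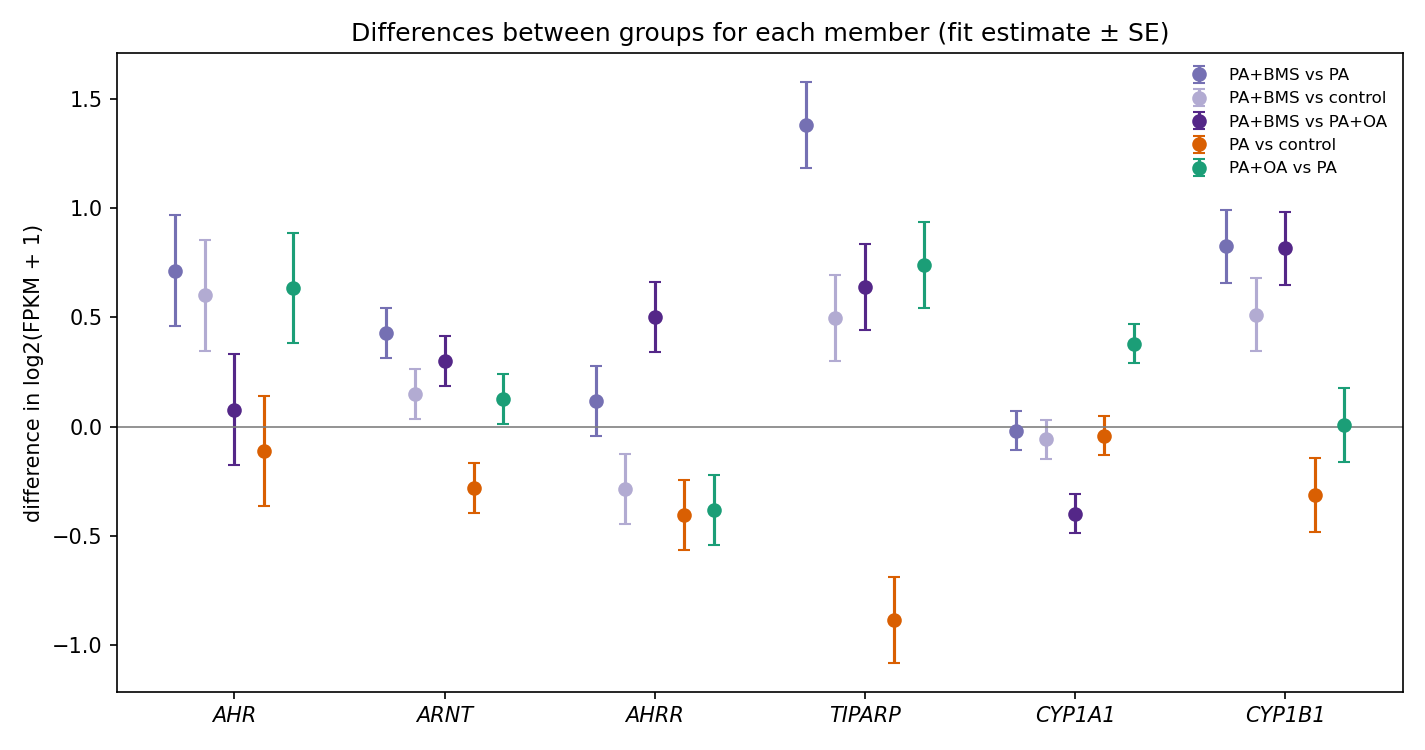
Difference in log2(FPKM + 1) between groups (y axis) for each member (x axis) in 5 comparisons, as the estimate of the fit over all genes with its standard error (bars). TIPARP lay 0.88 below control in PA and 1.38 above PA in PA+BMS, and CYP1A1 was near 0 except where PA+OA entered.

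How far each member differed between PA+BMS and PA depended on the processing. AHR (transcript GC content 38.2%), TIPARP (42.8%), CYP1B1 (44.1%) and ARNT (47.1%) lay below the median of the tested genes, 49.2%, and AHRR (57.4%) above the upper quartile of 57.0%. When the trend of each library with GC content and length was removed, the difference of AHR became 0.18 in place of 0.71, that of ARNT 0.24 in place of 0.43, that of CYP1B1 0.48 in place of 0.82 and that of TIPARP 1.01 in place of 1.38. The difference of AHRR became 0.45 in place of 0.12. Setting the library totals equal moved the median of all genes from -0.044 to 0.24. With it TIPARP moved to 1.70, AHR to 0.97, ARNT to 0.77 and AHRR to 0.49, while CYP1A1 changed sign to 0.066. Every PA+BMS library had a higher ratio of scaling factor to reads than every PA library, as given above. The part of that ratio in this shift was not tested. With equal totals 79.2% of the calls over all genes were higher, in place of 46.1%. The same scaling gave 75.5% in place of 46.7% against PA+OA and 15.2% in place of 46.4% for PA against control. Leaving out both libraries that stood apart, PA+OA replicate 1 and PA+BMS replicate 3, gave 1.20 for TIPARP, 0.65 for CYP1B1 and 0.53 for AHR. No setting that was run changed the sign of AHR, ARNT, AHRR, TIPARP or CYP1B1 in this comparison.

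**Figure D3:**
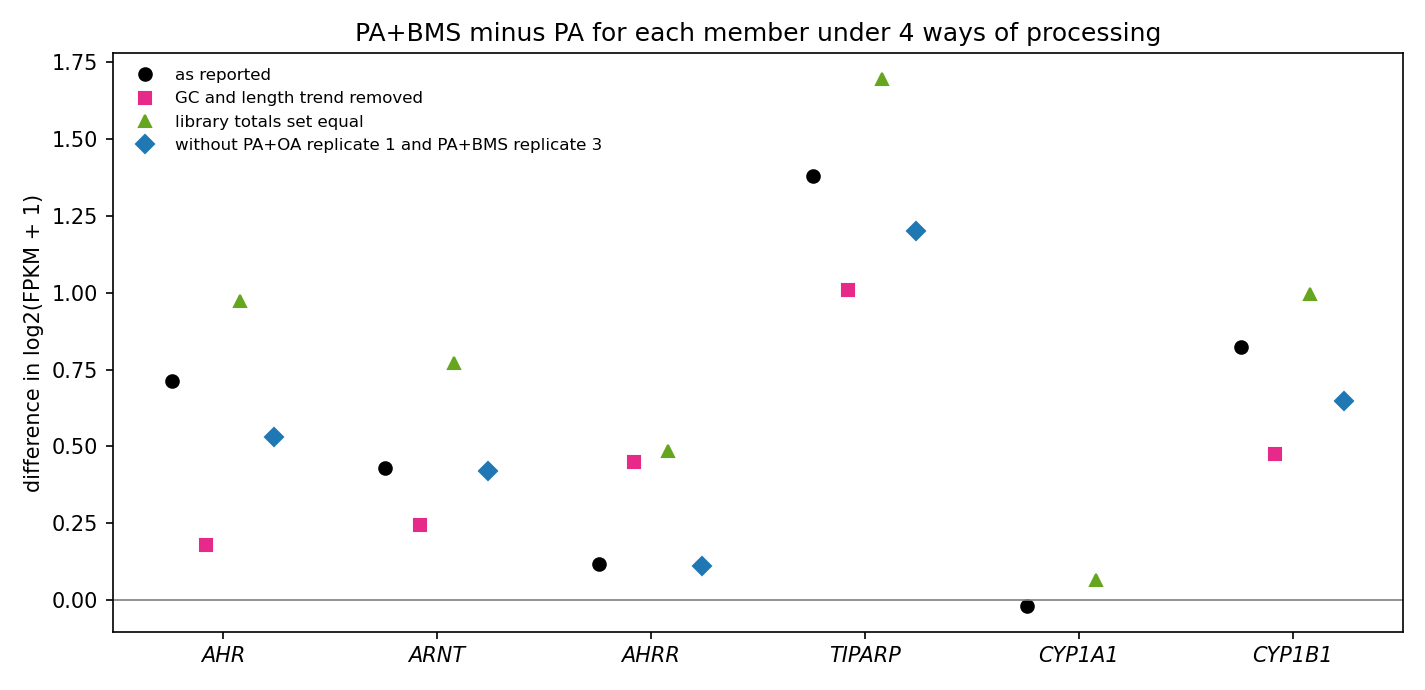
Difference in log2(FPKM + 1) between PA+BMS and PA (y axis) for each member (x axis) as reported and under 3 other ways of processing. CYP1A1 has no value where the filter on low values removed it, and AHR fell by the largest share, from 0.71 to 0.18, with the GC and length trend removed.

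Along the first principal component the members took different places (the plot of levels against the component). Over the 12 libraries, which share their groups, Pearson's r with the component was -0.88 for CYP1B1, -0.86 for ARNT, -0.78 for TIPARP, -0.77 for AHRR, -0.42 for AHR and 0.65 for CYP1A1. PA+BMS replicate 3, at the low end, had the highest TIPARP and CYP1B1 levels of all libraries, and PA+OA replicate 1, at the high end, the lowest ARNT, AHRR and CYP1B1 and the highest CYP1A1. Within PA+BMS, replicates 1 and 2 (scores -16.8 and -19.4) were close to controls 2 and 3 (-27.1 and -24.6). TIPARP was 8.24 and 8.05 FPKM in those PA+BMS libraries and 6.63 and 6.32 in those controls. For CYP1B1, which passed the filter only through PA+BMS, the same libraries gave 1.20 and 1.13 against 0.903 and 0.559 FPKM. AHR had 2.68 and 2.47 against 1.89 and 1.71 there, and ARNT 9.83 and 11.1 against 9.61 and 9.47. AHRR went the other way, at 29.6 and 30.7 against 40.1 and 36.8 FPKM, and CYP1A1 overlapped (0.212 and 0.346 against 0.296 and 0.280). The part of the component in these differences was not tested.

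**Figure D4:**
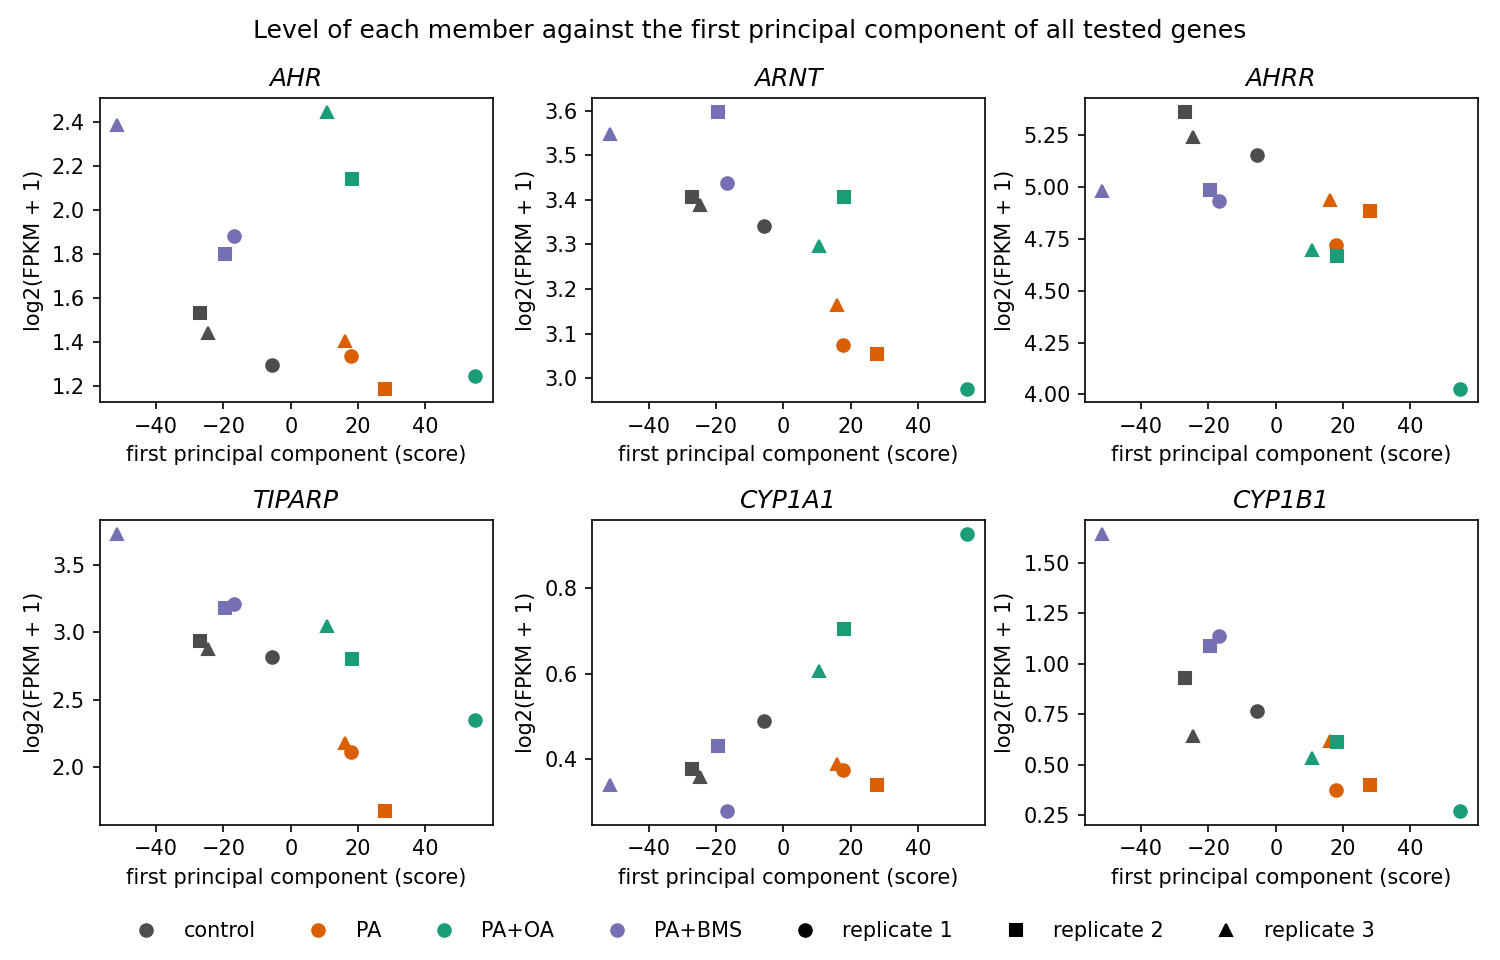
Level of each member as log2(FPKM + 1) (y axis) against the score of each library on the first principal component of all tested genes (x axis), with colours for groups and symbols for replicates. The score runs from -51.5 for PA+BMS replicate 3 to 54.6 for PA+OA replicate 1, and the AHR levels of PA+OA replicates 2 and 3 lie above those of all other libraries of similar score.

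Of the cytoplasmic chaperones that hold AHR, HSP90AA1, an inducible HSP90 isoform, rose in PA+BMS against PA. It was 89.6, 53.9 and 83.2 FPKM in PA and 135, 134 and 290 in PA+BMS, a log2 difference of 1.23 ± 0.30 (limma, adjusted p = 0.00845). PTGES3, which encodes p23, and HSP90AB1 were not called. HSP90AA1 was lower with palmitate alone against control (-1.14 ± 0.30, limma adjusted p = 0.0190). In PA+BMS against control HSP90AA1, HSP90AB1 and PTGES3 were not called by limma or by voom, nor was any of them at an unadjusted p under 0.05.

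The targets outside the members were taken from lists of an AHR gene battery and of other reported targets, 21 genes in all, and most of the inducible liver enzymes among them were not expressed. CYP1A2, the liver partner of CYP1A1, had 1 read over all 12 libraries, UGT1A6 had 1 and UGT1A1 had 5. Both UGT1A genes are glucuronosyltransferases that share exons with other members of their cluster. GSTA1, GSTA2 and SERPINB2 had none. A further 4 genes, IDO1, XDH, IL1B and POLK, did not pass the filter, so 11 of 21 were tested. NQO1, a quinone reductase of the battery, was among the abundant ones, at 147 to 179 FPKM in control, 196 to 216 in PA and 166 to 204 in PA+BMS. It was not called in PA+BMS against PA (log2 difference -0.12 ± 0.15, limma adjusted p = 0.497) or against control (0.22 ± 0.15, adjusted p = 0.373).

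Of the 11 tested targets, 4 rose and 3 fell in PA+BMS against PA, with a median log2 difference of 0.0096 beside -0.044 over all genes. Of all tested genes 25.2% rose and 29.4% fell in this comparison, and these shares are the background of each list count against PA. NFE2L2, which encodes the antioxidant regulator NRF2, was 7.30, 6.20 and 8.39 FPKM in PA and 14.5, 13.7 and 18.8 in PA+BMS (log2 difference 1.002 ± 0.21, limma adjusted p = 0.00556). CCNG2, an atypical cyclin of growth arrest, was 1.02, 1.15 and 1.36 FPKM in PA and 2.59, 2.87 and 2.41 in PA+BMS (0.74 ± 0.13, limma adjusted p = 0.00370). UGDH, which makes the glucuronosyl donor, and the drug efflux pump ABCG2 were the other genes that rose. ALDH3A1, an aldehyde dehydrogenase and a classical battery member, fell: it was 6.09, 6.65 and 4.95 FPKM in PA and 3.65, 2.93 and 2.82 in PA+BMS (-0.74 ± 0.19, limma adjusted p = 0.00985). CYP2S1, a dioxin-inducible cytochrome, and SLC7A5, a large amino acid transporter, fell as well. Over 26 alternatives the calls of NFE2L2 and UGDH were lost in 0, that of ALDH3A1 in 1, those of SLC7A5, ABCG2 and CYP2S1 in 4, 6 and 13. CCNG2 was lost in 1 of 25.

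With the GC and length trend removed, 2 of these 11 targets were called higher, NFE2L2 (adjusted p = 0.0140) and UGDH (adjusted p = 0.0247), and 0 lower in that limma fit. ALDH3A1 (adjusted p = 0.116), CCNG2 (0.283), ABCG2 (0.378) and SLC7A5 (0.279) were no longer called, and CYP2S1, whose difference changed sign to 0.14, was not either. Leaving out both libraries that stood apart gave 3 targets that rose and 3 that fell.

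Against control, 3 of the 11 targets rose in PA+BMS and 0 fell, with a median of 0.32 beside -0.018 over all genes, of which 4.77% rose and 6.25% fell. The lack of falls held for unadjusted p under 0.05 and for voom, which gave 4 higher and 0 lower each. CCNG2 (0.57 ± 0.13, limma adjusted p = 0.0172), HES1, a Notch-pathway repressor (0.57 ± 0.12, adjusted p = 0.0113), and STC2, a secreted glycoprotein of cell stress (1.85 ± 0.29, adjusted p = 0.00179), were the 3, and CCNG2 was lost there with the trend removed (adjusted p = 0.0632). HES1 (0.56 ± 0.12, limma adjusted p = 0.00960) and STC2 also rose with palmitate alone, though the HES1 call was lost with totals set equal, with voom and without control replicate 2 or PA replicate 2. STC2 was 11.9, 4.12 and 3.96 FPKM in control, 21.1, 27.9 and 24.4 in PA, and 24.9, 26.0 and 20.9 in PA+BMS, and was not called between PA+BMS and PA. The count against control was 1 without control replicate 3 or without PA+BMS replicate 2. With palmitate against control 4 targets rose and 2 fell, beside 12.8% and 14.8% of all tested genes, and this count was 3 in all without control replicate 2 or without PA replicate 2. NFE2L2 (-0.68 ± 0.21, limma adjusted p = 0.0347) and UGDH (-0.82 ± 0.16, adjusted p = 0.00693) were the pair that fell. NFE2L2 was lost in 7 of 26 alternatives, among them the removed trend (adjusted p = 0.0568), and UGDH in 0.

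Between PA+BMS and PA+OA, 3 targets rose and 4 fell, beside 23.1% and 26.4% of all tested genes, with ALDH3A1, CYP2S1, SLC7A5 and HES1 lower in PA+BMS. Without PA+OA replicate 1 this count was 4 and without PA+BMS replicate 3 it was 2. With the GC and length trend removed 1 target rose, NFE2L2 (limma adjusted p = 0.0357), and 0 fell. Over 26 alternatives the calls of SLC7A5, HES1, ALDH3A1 and CYP2S1 were lost in 16, 9, 5 and 1. With oleate added to palmitate 0 of 11 were called in limma and in voom, and 2, both higher, at an unadjusted p under 0.05. That 0 became 1 without control replicate 1 or PA+BMS replicate 3, 2 without PA+OA replicate 1, and 4 with both libraries that stood apart left out.

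**Figure D5:**
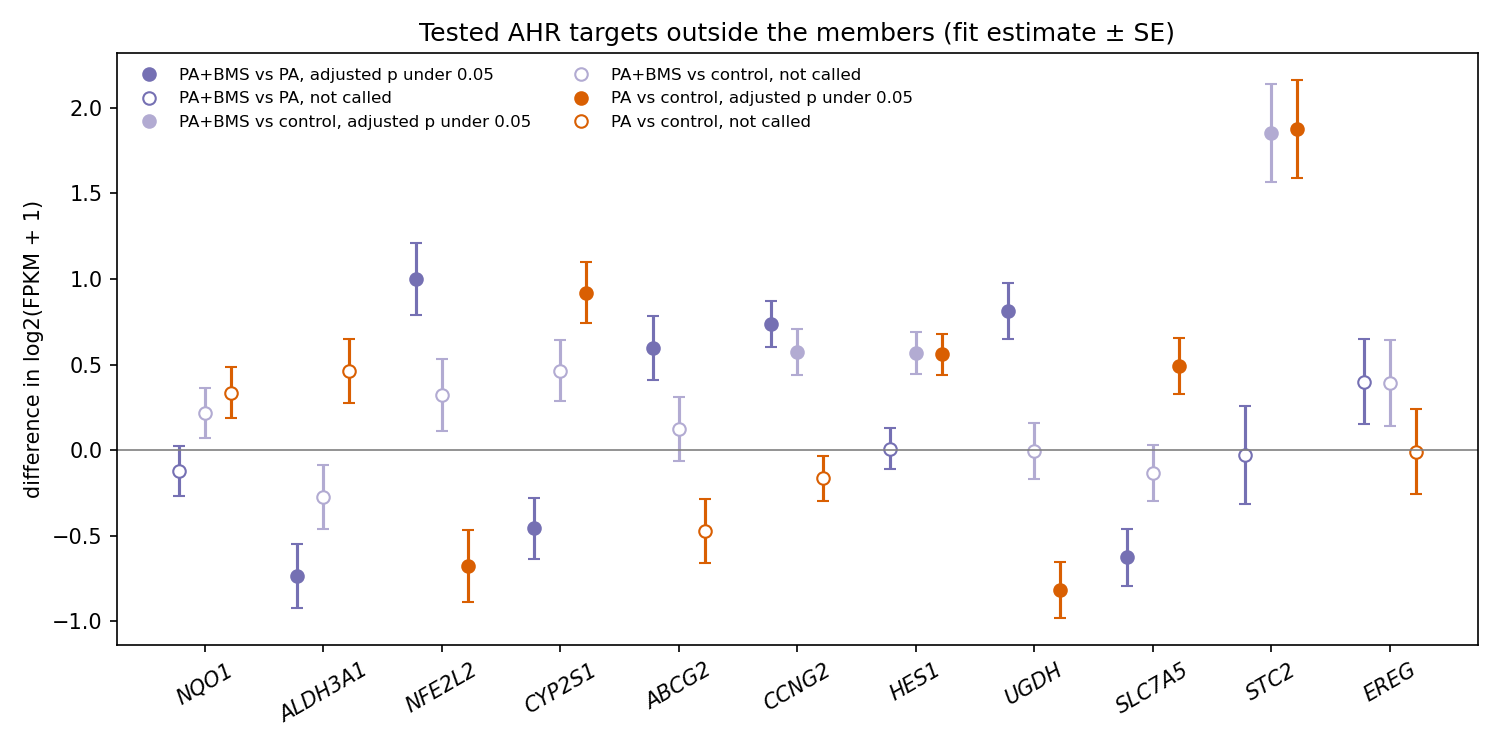
Difference in log2(FPKM + 1) (y axis, estimate ± SE of the limma fit) for the 11 tested AHR targets outside the members (x axis) in 3 comparisons, with filled points where the adjusted p was under 0.05. Targets lie on both sides of 0 in PA+BMS against PA, and STC2 stands at 1.88 in PA and 1.85 in PA+BMS against control.

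Relatives of the receptor that share its bHLH-PAS architecture, and coactivators that bind it, made up a list of 18 genes. Of these 12 were tested, and 6 rose and 1 fell in PA+BMS against PA, with a median of 0.45 beside -0.044 over all genes. ARNTL2, a clock gene, rose from 1.04, 0.907 and 1.17 FPKM in PA to 1.88, 2.37 and 3.70 (0.81 ± 0.16, limma adjusted p = 0.00503). The p160 coactivators NCOA2 (0.90 ± 0.20, adjusted p = 0.00623), NCOA3 (0.85 ± 0.21, adjusted p = 0.00935) and NCOA1 (0.70 ± 0.18, adjusted p = 0.00946) rose too. With the GC and length trend removed 4 rose and 0 fell: ARNTL2, NCOA2 and NCOA3 stayed called and PER1 joined them, while NCOA1 (adjusted p = 0.0518), HIF1A (0.178) and the clock gene ARNTL (0.928) were lost. Without PA replicate 2 the counts were also 4 and 0. ARNTL2, NCOA2 and HIF1A were called lower with palmitate alone against control, by 0.63, 0.63 and 1.02 on the log2(FPKM + 1) scale. With the trend removed from that limma fit, ARNTL2 (adjusted p = 0.116) and NCOA2 (0.0756) were lost and HIF1A (0.0129) stayed called. Against control PER1 alone of these relatives was called, at 0.66 ± 0.13 (limma adjusted p = 0.00769). PER1 also rose with palmitate alone (0.83, limma adjusted p = 0.00229) and with oleate added to palmitate (0.48, adjusted p = 0.0399). It was lower in PA+BMS than in PA+OA (-0.66, limma adjusted p = 0.00362).

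ARNT2, a tissue-restricted relative that can stand in for ARNT, stayed under 1 FPKM in every library and was not tested; it was singled out after its values were seen. Its mean was 0.0917 ± 0.0104 FPKM in PA+BMS and 0.243 ± 0.104 in PA+OA, against 0.642 ± 0.0464 in PA and 0.684 ± 0.141 in control (SD, n = 3). No library of PA+BMS or PA+OA reached the lowest of the control and PA libraries. The reads behind it numbered 250 over the PA libraries and 45 over the PA+BMS libraries, while ARNT itself was highest in PA+BMS.

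Enzymes that make kynurenines from tryptophan, a source of endogenous AHR ligands, were mostly low. IDO1, IDO2 and TDO2, which catalyse the entry step, had 6, 14 and 1 reads over all libraries, and 5 of 11 enzymes were tested. AADAT, an aminotransferase that makes kynurenic acid, rose in PA+BMS against PA from 0.984, 1.29 and 1.002 FPKM to 2.54, 2.36 and 2.57 (0.74 ± 0.13, limma adjusted p = 0.00358). AFMID and KYAT1 fell, by 0.35 and 0.49 on the log2(FPKM + 1) scale, and both calls were lost with the trend removed (adjusted p = 0.704 and 0.552). Of these 3 calls only AADAT was left without PA+BMS replicate 3 or without PA replicate 1. The list median was 0.014 beside -0.044. With palmitate alone against control AADAT was lower (-0.56 ± 0.13, limma adjusted p = 0.0130), and this call was lost with the trend removed (adjusted p = 0.0977). AADAT was not called in PA+BMS against control, and KYNU, which cleaves kynurenine, was lower (-0.59 ± 0.14, limma adjusted p = 0.0222), a call lost in 7 of 26 alternatives. With palmitate alone KYNU fell by 0.60, and by 0.13 with the trend removed, where it was not called (adjusted p = 0.517).

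The receptors CAR and PXR govern the other large arm of the hepatic xenobiotic response, and their system was nearly silent here. NR1I2, which encodes PXR, had no read in any library, and NR1I3, which encodes CAR, lay at 0.0152 to 0.390 FPKM. CYP3A4 had 3 reads and CYP2B6 had 2 over all libraries. Of 18 listed genes 5 were tested, and in PA+BMS against PA 1 rose and 2 fell, with a median of -0.33 beside -0.044. The one that rose was ABCC2, a canalicular efflux pump, at 5.66, 4.10 and 6.09 FPKM in PA and 12.3, 12.5 and 17.1 in PA+BMS (1.25 ± 0.18, limma adjusted p = 0.00183). It fell with palmitate alone against control (-1.05 ± 0.18, adjusted p = 0.00366), and at 0.20 ± 0.18 it was not called in PA+BMS against control. RXRA, the shared partner receptor, and ALAS1, which starts haem synthesis for cytochromes, fell, and both were lost with the trend removed. RXRA also fell in PA+BMS against control (-0.53 ± 0.12, limma adjusted p = 0.0140), a call that held with the trend removed (-0.43, adjusted p = 0.00148) and was lost without control replicate 1, control replicate 3 or PA+BMS replicate 2.

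NRF2 targets overlap the AHR battery through NQO1 and were widely expressed, with 16 of 16 tested. In PA+BMS against PA, 6 rose and 2 fell, with a median of -0.041 beside -0.044 over all genes. TXNRD1, a thioredoxin reductase, was 232, 242 and 244 FPKM in PA and 404, 444 and 446 in PA+BMS (0.85 ± 0.14, limma adjusted p = 0.00264). GCLM, of glutathione synthesis, was 10.4, 11.1 and 11.02 FPKM in PA and 18.4, 20.1 and 20.04 in PA+BMS (0.79 ± 0.13, adjusted p = 0.00264). ABCC3, a basolateral efflux pump, fell (-0.72 ± 0.095, limma adjusted p = 0.00120), as did the aldo-keto reductase AKR1C1. HMOX1, haem oxygenase, was 22.5, 30.02 and 25.03 FPKM in PA and 25.9, 23.6 and 13.6 in PA+BMS and was not called. Against control 5 rose, among them TXNRD1 and GCLM, and AKR1C1 fell. Without control replicate 3 this count of 6 was 2, and the calls of TXNRD1 and GCLM against control were lost in 11 and 8 of 26 alternatives. With the GC and length trend removed, 9 rose and 2 fell against PA and 9 rose and 1 fell against control.

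For each tested member, the protein-coding genes outside the members with the most similar profile were found by Pearson's r of log2(FPKM + 1) over the 12 libraries among 10134 such genes. AHR was most like FOXO3 (0.97), TBCEL (0.96) and GFPT1 (0.96), and ARNT most like TDRD7 (0.97), NASP (0.97) and NARS2 (0.96). TIPARP was most like RP2, MFAP3 and CLCN3 (each 0.98), CYP1B1 most like BEND6 (0.97), ELF2 (0.97) and RAVER2 (0.97), and AHRR most like DDX17 (0.98) and PHF10 (0.98). Genes with r above 0.9 numbered 56 for AHR, 126 for AHRR, 176 for ARNT, 298 for TIPARP and 325 for CYP1B1, and all points share the groups and the principal component described above. Between members, r was highest for ARNT with TIPARP (0.88), ARNT with CYP1B1 (0.84) and TIPARP with CYP1B1 (0.83), and lowest for AHRR with CYP1A1 (-0.79).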

How the data were processed

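RNA of 12 HepaRG libraries was poly(A)-selected and sequenced as 150 bp pairs, per the labels' protocols. CASAVA, HISAT2 2.0.5 and featureCounts 1.5.0-p3 are named, per the submitters' processing notes, without roles. Build, annotation and strand setting were not given in the sources used here. Values deposited by the authors are FPKM per gene, and the step from reads to FPKM is not described there. The identifiers, symbols, starts and ends of all 58735 genes equalled GENCODE 29 on GRCh38. All values came out as whole reads (100%, tolerance 0.001), 16059128 to 19971190 per library.

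From these FPKM, log2(FPKM + 1) of 11856 genes with at least 1 FPKM in at least 3 libraries was fitted with limma 3.58.1 (R 4.3.3; trend, 1 coefficient per group, 12 libraries, 8 residual degrees of freedom, two-sided, Benjamini-Hochberg over all tested genes, calls at 0.05) in 5 comparisons. CYP1A1 failed the filter and its differences come from the fit without it. Errors of differences are SE. The members and lists were chosen with earlier results of these data known, so no p is given for a member and counts of members called are a description. List genes named are those with the smallest p in PA+BMS against PA (2 to 4 per list), with NQO1, ALDH3A1, UGT1A1, UGT1A6, CYP1A2, CYP3A4, CYP2B6 and HMOX1 always; genes named beside a count were taken whole from that count. Other list genes named, including the enzymes low in all libraries and list genes in further comparisons, were picked after their values were seen. GC content is that of the longest GENCODE 29 transcript; its trend and that of length were removed per library with splines of 5 degrees of freedom. Motifs were searched on both strands of RefSeq promoters (GRCh38.p14). The procedure was tested on simulated data. Some list genes and similar-profile genes are not reported here. Figures used matplotlib 3.10.9.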

Additional observations from a re-analysis of the deposited data

How the results depend on the processing

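Depth limits CYP1A1, at 15 to 47 reads per library, and with 3 libraries a group the SE of a member's difference was 0.089 to 0.25. The alternatives were planned, but the pair PA+OA replicate 1 and PA+BMS replicate 3 was chosen from these data, in which both stood apart. Removing the trend with GC content and length gave 2750 genes called in PA+BMS against PA (6463 as reported), 2279 against control (1306), 1948 in PA against control (3272) and 1583 in PA+OA against PA (938). Under it the AHR targets called numbered 2 in PA+BMS against PA (7), 1 against PA+OA (7) and 1 in PA+OA against PA (0). The members' differences between PA+BMS and PA were then 0.18 for AHR, 0.24 for ARNT, 0.45 for AHRR, 1.01 for TIPARP and 0.48 for CYP1B1. With voom on recovered reads, on a log2 scale of library-scaled counts with no 1 added, they were 1.31 for AHR, 0.75 for ARNT, 0.39 for AHRR, 1.92 for TIPARP and 2.19 for CYP1B1. Totals set equal gave 0.77 for ARNT, 0.49 for AHRR and 1.70 for TIPARP, quantile normalization 0.44 for AHRR, and a pseudocount of 0.1 gave 1.69 for CYP1B1. Precision weights per library gave 4031 genes in PA+BMS against control, 7234 in PA against control and 5371 in PA+OA against PA. They gave 5 targets against control, as quantile normalization also did (3 as reported), and 7 in PA+OA against PA. Fitting only the 2 groups compared gave 2066 genes and 4 targets in PA+BMS against PA+OA (5878 and 7), 5906 genes in PA against control and 464 in PA+OA against PA. A filter at 5 FPKM gave 853 genes in PA+BMS against control, no filter 1599 in PA against control, and median-of-ratios scaling 1 target in PA+OA against PA. Leaving out PA+OA replicate 1 together with PA+BMS replicate 3, genes called numbered 2159 in PA+BMS against control, 2567 against PA+OA with 3 targets, 6723 in PA against control and 3016 in PA+OA against PA with 4 targets. The cause of these changes was not tested. Leaving out each library in turn gave 3687 to 7414 genes in PA+BMS against PA, 654 to 2330 against control, 3017 to 6290 against PA+OA, 795 to 5336 in PA against control and 473 to 1946 in PA+OA against PA. Targets then numbered 5 to 8, 1 to 4, 2 to 8, 3 to 8 and 0 to 2 in the same order. In PA+BMS against PA the members' ranges were 0.53 to 0.83 for AHR, 0.39 to 0.47 for ARNT, 0.054 to 0.16 for AHRR, 1.20 to 1.47 for TIPARP and 0.65 to 0.92 for CYP1B1, and CYP1A1 changed sign (-0.058 to 0.018).

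Replicate numbers are shared between groups, and the correlations of deviations between samples of the same number ran from -0.28 to 0.56. In none of the 5 comparisons were all 3 over 0.1 (in PA+BMS against PA+OA they were 0.50, -0.14 and 0.56). The deviations are from means of 3 libraries, so these correlations cannot exclude pairing. The main fit takes the samples to share only a number. With the replicate block 7083 genes were called in PA+BMS against PA, 1704 against control, 6557 against PA+OA, 4652 in PA against control and 1139 in PA+OA against PA, and targets numbered 7, 4, 7, 8 and 1. Without the block the genes called numbered 6463, 1306, 5878, 3272 and 938 in the same order.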

Other observations

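Among genes that answer to HIF1A, which competes with AHR for ARNT, 16 of 16 listed were tested. In PA+BMS against PA, 5 rose and 4 fell in the limma fit, with a median log2 difference of -0.12 beside -0.044 over all genes, of which 25.2% rose and 29.4% fell. Against control, limma and voom called 0 of the 16, and at an unadjusted p under 0.05 limma had 1 higher and 4 lower. With the GC and length trend removed 0 rose and 3 fell there. P4HA1, a collagen prolyl hydroxylase subunit, was 4.33, 4.68 and 4.68 FPKM in PA and 8.58, 9.13 and 10.9 in PA+BMS (0.91 ± 0.16, limma adjusted p = 0.00333). In control it was 6.88, 8.98 and 10.2 FPKM, and it fell with palmitate alone (-0.79 ± 0.16, limma adjusted p = 0.00672). KDM3A, a histone demethylase, also rose (0.60 ± 0.13, limma adjusted p = 0.00553), a call lost with the GC and length trend removed (adjusted p = 0.511). Among those that fell were the glucose transporter SLC2A1 and the glycolytic enzymes ENO1 and PGK1, picked after their values were seen. The call of SLC2A1 was lost in 10 of 26 alternatives, among them the removed trend (-0.037, limma adjusted p = 0.765). Those of PGK1 and ENO1 were lost in 5 and 2 and held with the trend removed. With the trend removed 1 rose and 3 fell, and without PA replicate 2 the counts were 3 and 1. HIF1A itself was 25.01, 30.8 and 27.4 FPKM in control, 14.1, 11.2 and 14.4 in PA and 19.6, 17.7 and 32.2 in PA+BMS (0.73 ± 0.22, limma adjusted p = 0.0185), lost with the trend removed (adjusted p = 0.178) and without PA replicate 2 or PA+BMS replicate 3.

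Of 14 PARP family relatives of TIPARP, 12 were tested, 2 rose and 2 fell in PA+BMS against PA, with a median of -0.030 beside -0.044. PARP4, the vault PARP, was 5.14, 3.61 and 5.15 FPKM in PA and 9.27, 9.97 and 12.8 in PA+BMS (1.05 ± 0.19, limma adjusted p = 0.00379), and it was lower with palmitate alone against control (-0.74, adjusted p = 0.0190). PARP10, a mono-ADP-ribosyltransferase, fell (-0.93 ± 0.18, limma adjusted p = 0.00469). PARP3 fell as well, and was lost with the trend removed (adjusted p = 0.637).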
